A study of Macaca mulatta with 9 samples.

Results

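SELE and ESM1 are 2 genes whose products are made by activated endothelium, and they were taken from the array by exact gene symbol. Each was read by 1 probe set, so the account rests on 2 of 14132 genes with a probe set of their own symbol, and on 2 of the 52865 probe sets on the array. Both probe sets lay above the filter on low signal and were among the 26383 tested. The pair was chosen by earlier results of the same arrays, SELE by its difference between WSD and control follicles and ESM1 by its difference between WSD+T and control follicles, groups that are defined in the next paragraph. Those 2 differences are therefore given as a description, with no test.

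The samples were small antral follicles of young adult female rhesus macaques in the early follicular phase. The WSD+T females had a Western-style diet with chronically elevated androgen, labelled chronic T. The WSD females had the Western-style diet alone, and the control females a normal, standard diet. Each group had 3 biological replicates with 1 array each, and every replicate pooled follicles of 1 female and ovary. Follicles were cleaned of stroma and lysed whole, so the RNA came from the follicle wall, the granulosa cells and the oocyte with its cumulus. In such bulk RNA, fewer cells of a type and less RNA per cell cannot be told apart. The androgen was given only on top of the diet, and its effect on a standard diet was not analysed here.

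SELE encodes E-selectin, a lectin on the surface of endothelial cells that binds fucosylated, sialylated sugars on leukocytes and makes them roll along the vessel wall. Resting endothelium holds little of it, and tumour necrosis factor and interleukin-1 induce it through NF-kB. ESM1 encodes endocan, a secreted proteoglycan with a single dermatan sulphate chain that vascular endothelial growth factor induces in the tip cells of sprouting vessels. In humans it also binds the leukocyte integrin LFA-1, the partner of ICAM-1. In the follicle the capillaries lie in the theca, outside the basement membrane, and the granulosa layer has none before ovulation. SELE lies on macaque chromosome 1 and ESM1 on chromosome 6, both protein-coding in a RefSeq gene table of the species.

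Signals are MAS5 values on a linear scale, which the authors had scaled so that the mean without the outer 2% of probe sets was 200.01 on every array. Differences are on the scale of log2(signal + 16), and a call means a limma p, adjusted over all tested probe sets, under 0.05. The diet alone gave 3817 calls, 14.5% of probe sets, of which 66.9% were lower, against 46.8% lower under median centring, 50.3% under cyclic loess and 56.8% under quantile normalization. WSD+T against control gave 520 calls (1.97% of probe sets, with 0.542% higher) and WSD+T against WSD 789 (2.99%, with 2.04% higher), of which 31.7% were lower, against 60% under median centring, 57.0% under cyclic loess and 51.7% under quantile normalization. Median centring moved the median of all probe sets by 0.13 in WSD vs control and by -0.14 in WSD+T vs WSD. WSD replicate 3 stood apart in markers of other cells, with a summed myeloid signal of 980 against 17925 and 26078 on the other WSD arrays. WSD+T replicates 1 and 3 were the closest pair, with a median absolute difference of 0.11 on the log2 scale, against 0.18 and 0.18 for the other pairs of that group and 0.23 to 0.45 within WSD and control.

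SELE was lowest after the diet alone, intermediate after diet with androgen and highest in control follicles. It had signals of 69.1, 53.7 and 59.9 in WSD+T replicates 1 to 3, of 29.1, 23.0 and 11.1 in WSD replicates, and of 299, 62.3 and 165 in control replicates. All 3 WSD arrays lay below all others, while control replicate 2 fell within the range of the WSD+T arrays. Of all tested probe sets, 20.2% had WSD wholly below control, the comparison that chose SELE. The share with WSD+T wholly above WSD was 17.5%. Group means were 60.9 ± 7.74 in WSD+T, 21.1 ± 9.14 in WSD and 176 ± 119 in control (SD, n = 3). The control group thus had the widest spread of SELE. The mean signal in WSD was just under the filter's signal of 21.2, so differences that involve this group depend on the pseudocount. Without detection calls it is not known whether SELE was above background on the WSD arrays, and folds against them describe the deposited signals only.

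SELE in WSD stood at 0.12 times its mean signal in control, a log2 difference of -2.18 (SE 0.44). Only 24 tested probe sets had a more negative difference in this comparison, which is the one that chose the gene. The difference was -1.97 without WSD replicate 3, the array that stood apart. It was -2.83 with a pseudocount of 1 and -1.37 with a pseudocount of 64. It was -1.71 without control replicate 1, the array with the highest SELE signal, and -2.72 without control replicate 2. SELE in WSD+T stood at 34.7% of control, and its difference of -1.10 (SE 0.44, 95% interval of this single comparison -2.11 to -0.10) did not pass (adjusted p = 0.227, range over the alternatives 0.0720 to 0.462). That value rested on the control arrays: it was -0.63 without control replicate 1 and -1.64 without control replicate 2. Neither of those fits passed (adjusted p = 0.402 and 0.0729).

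The deposited signal of SELE was 2.89 times as high in WSD+T as in WSD by group mean, with the doubt about background in WSD given above, and the 2 groups did not overlap, as was the case for 28.5% of all tested probe sets in this comparison, 17.5% with WSD+T above WSD. The log2 difference of 1.08 (SE 0.44, 95% interval 0.08 to 2.08) did not pass (adjusted p = 0.208, range over the alternatives 0.0790 to 0.436). The SE was the same in all 3 comparisons of SELE, since it draws on all 9 arrays, the widely spread control arrays included. With only the 2 groups compared the difference did not pass either. In the order of the 3 groups, neither WSD+T and control nor WSD and WSD+T were thus separated by the test. The direction was the same under all 19 alternatives, in a range from 0.56 with a pseudocount of 64 to 1.58 with a pseudocount of 1.

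**Figure D1:**
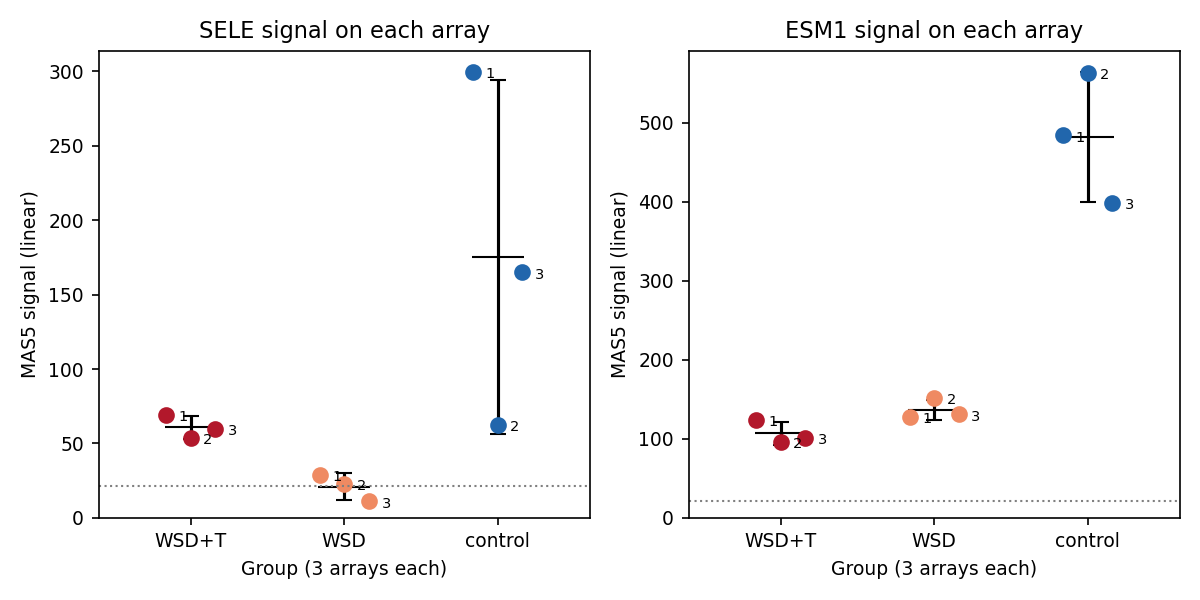
MAS5 signal of SELE (left) and ESM1 (right) on each of the 9 arrays, by group, on linear axes; points are arrays with their replicate number, the horizontal bar and whiskers are the mean ± SD of n = 3, and the dotted line is the filter's signal of 21.2. SELE in control ran from 62.3 to 299 and reached the range of WSD+T, whereas ESM1 was at least 399 on the control arrays and at most 151 on all others.

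ESM1 was low in both groups on the Western-style diet. It had signals of 124, 95.9 and 101 in WSD+T replicates 1 to 3, of 128, 151 and 131 in WSD replicates, and of 484, 563 and 399 in control replicates. Every array of a diet group lay below every control array, and the spread within each group was narrow. Group means were 107 ± 14.8 in WSD+T, 137 ± 12.8 in WSD and 482 ± 82.2 in control (SD, n = 3).

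In WSD, ESM1 stood at 28.4% of its mean signal in control. The log2 difference of -1.69 (SE 0.17) passed (limma's adjusted p = 0.00296), with ESM1 lower on 3 of 3 WSD arrays, and the 2 groups did not overlap, as in 30.8% of tested probe sets, 20.2% with WSD below control. This comparison did not choose ESM1, but its control arrays are those of the one that did. It passed in all 19 alternatives, with adjusted p from 0.00179 to 0.0306 and differences from -1.82 to -1.43. In WSD+T, ESM1 stood at 22.2% of control, a log2 difference of -2.01 (SE 0.17). In this comparison, which chose the gene, 35 tested probe sets had a more negative difference. These 2 groups did not overlap either, as in 36.8% of tested probe sets, 18.0% with WSD+T below control.

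Adding androgen to the diet left ESM1 at 78.1% of its mean signal in WSD. The WSD+T and WSD arrays did not overlap, the highest of the first being 124 and the lowest of the second 128, as in 28.5% of tested probe sets, 10.9% with WSD+T below WSD. The log2 difference of -0.32 (SE 0.17, 95% interval -0.70 to 0.06) did not pass (adjusted p = 0.320, range over the alternatives 0.134 to 0.626). The interval includes a fall to below the level in WSD by 0.70 on the log2 scale, so the 2 groups are not shown to be alike. Between the groups on the Western-style diet, SELE was higher with androgen and ESM1 lower, with neither difference past the threshold. Within the control group, replicate 2 had the lowest SELE signal and the highest ESM1 signal.

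**Figure D2:**
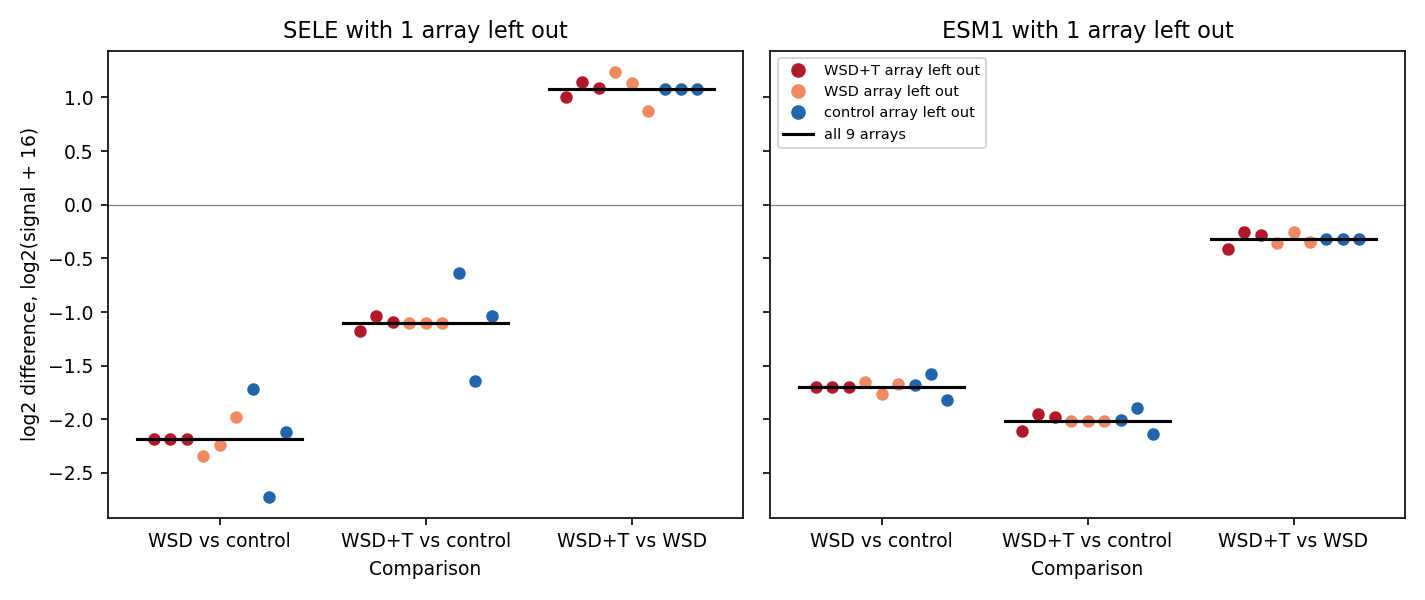
Log2 difference of SELE (left) and ESM1 (right) in each comparison when 1 array is left out; each point is 1 of the 9 fits, coloured by the group of the array left out, and black bars are the fits to all 9 arrays. For SELE in WSD+T vs control the points ran from -1.64 to -0.63, and for ESM1 in WSD vs control from -1.82 to -1.58.

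No general marker of endothelium that was tested was called lower beside SELE and ESM1. Of 28 such genes, 22 were listed on the array with 1 symbol. Of these, 6 lay under the filter and could not be called, KDR among them, and 16 were tested. None was called in WSD vs control (3 at an unadjusted p under 0.05, and 14.5% of all probe sets called), in WSD+T vs control (4 unadjusted, 1.97% called) or in WSD+T vs WSD (6 unadjusted, 2.99% called). Their median difference was 0.10 in WSD vs control, beside -0.08 for all tested probe sets, with a range of -0.77 to 1.09. Both SELE (-2.18) and ESM1 (-1.69) lay below that range, but SELE was chosen by its difference in this comparison, so its place is a description. In WSD+T vs control, the comparison that chose ESM1, the median was 0.64, beside -0.01 for all probe sets. The range of -0.12 to 1.70 lay above both SELE (-1.10) and ESM1 (-2.01), the place of ESM1 again being a description. In WSD+T vs WSD all 16 differences were positive, with a median of 0.76, beside 0.09 for all probe sets, and SELE (1.08) lay within their range of 0.01 to 1.20, while ESM1 (-0.32) lay below it. That median was 0.22 without WSD replicate 3 and 1.17 without WSD replicate 2.

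The vascular cadherin CDH5, which joins endothelial cells, averaged 257 ± 28.3 in WSD+T, 314 ± 242 in WSD and 214 ± 39.6 in control. PECAM1, an adhesion molecule at endothelial junctions that leukocytes and platelets also carry, averaged 900 ± 68.2 in WSD+T, 1063 ± 892 in WSD and 545 ± 200 in control. The clotting factor carrier VWF averaged 259 ± 28.3 in WSD+T, 176 ± 156 in WSD and 111 ± 31.98 in control, and the angiopoietin receptor TEK 304 ± 21.3 in WSD+T, 191 ± 170 in WSD and 210 ± 6.13 in control. The wide spread in WSD came from opposite ends of the group: the summed signal of the 16 markers was 7703 on WSD replicate 2 and 1234 on WSD replicate 3, with 3941 on WSD replicate 1. It ran from 4335 to 5252 in WSD+T and from 2075 to 3378 in control. SELE was low on both extreme WSD arrays (23.0 and 11.1) and ESM1 was 151 and 131 there.

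The counts for endothelial markers depended on these 2 arrays and on the shared estimate of the spread. With only the 2 groups compared 8 were called higher in WSD+T vs control, and with array weights per group 4. Without WSD replicate 3, 4 markers were called higher in WSD vs control and 3 higher in WSD+T vs control. Without WSD replicate 2, 1 was called lower in WSD vs control, 3 higher in WSD+T vs control and 8 higher in WSD+T vs WSD. The median in WSD vs control was -0.33 without WSD replicate 2 and -0.06 without control replicate 2. The VEGF receptors KDR and FLT1, which also mark endothelium, had mean signals under the filter and were not tested. KDR had signals from 12.9 to 18.5 in WSD+T, 7.49 to 17.3 in WSD and 18.8 to 33.7 in control, and FLT1 was at most 8.28 on all 9 arrays.

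**Figure D3:**
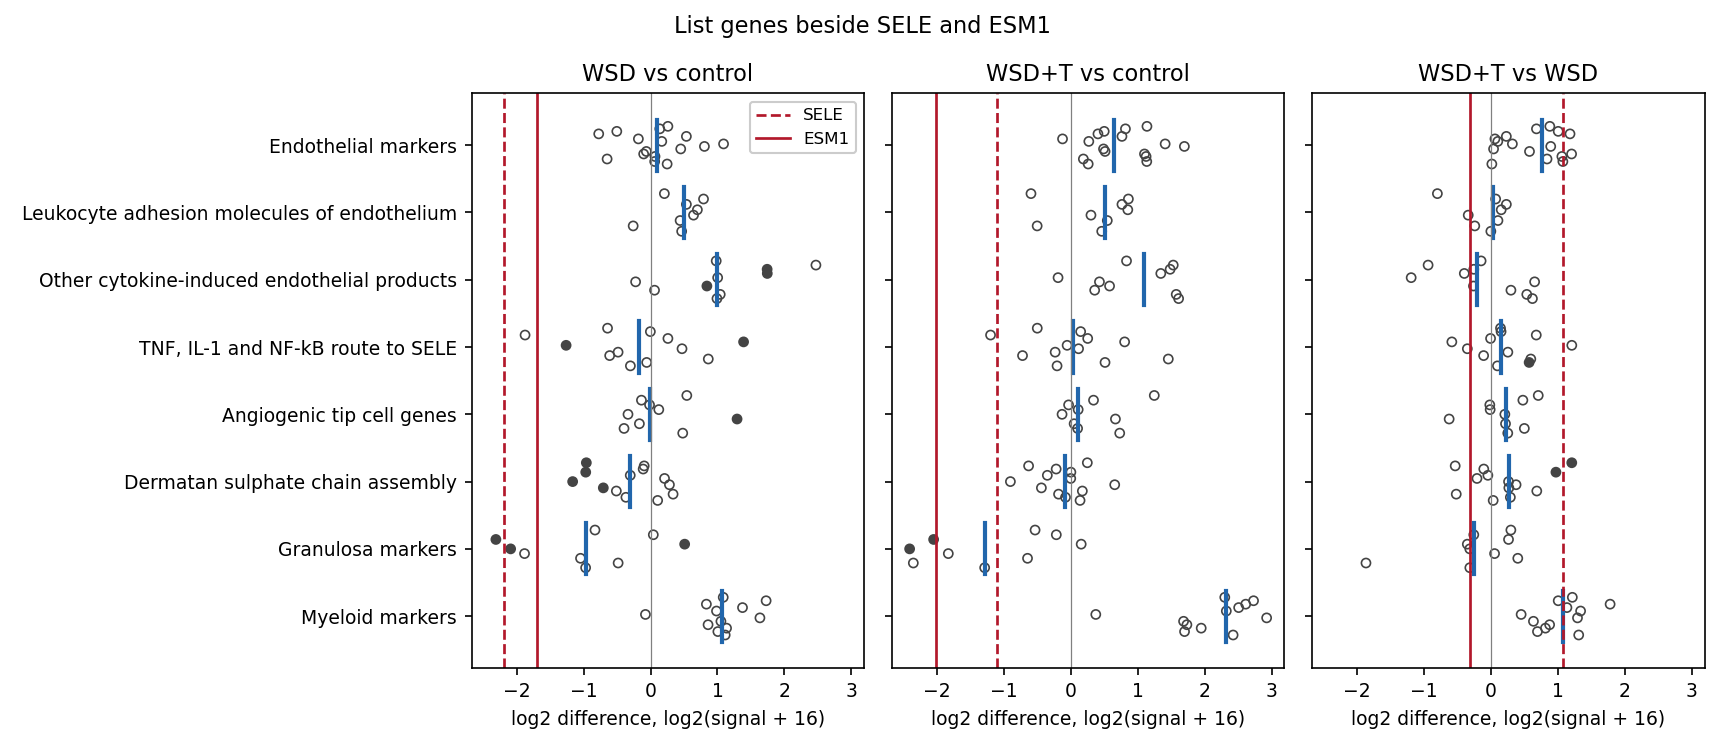
Log2 differences of the tested genes of 8 lists in the 3 comparisons, with 1 point per gene, filled where limma called it and open where not; blue bars are list medians, and red lines mark SELE (dashed) and ESM1 (solid). In WSD vs control, the comparison that chose SELE, both red lines lie left of all 16 endothelial markers and all 8 adhesion molecules.

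The other adhesion molecules that endothelium shows to leukocytes gave no call in any comparison. Of 13 such genes, 8 were listed and tested. At an unadjusted p under 0.05 there were 2 in WSD vs control, 4 in WSD+T vs control and 1 in WSD+T vs WSD. Of all probe sets, 14.5%, 1.97% and 2.99% were called in these comparisons. At such shares few calls would fall among 8 genes. VCAM1, which holds leukocytes by their α4 integrin and is induced by the same cytokines as SELE, averaged 896 ± 57.6 in WSD+T, 1626 ± 481 in WSD and 1372 ± 222 in control, a difference of 0.21 in WSD vs control (adjusted p = 0.585). ICAM1, the ligand of LFA-1, averaged 27.5 ± 0.51 in WSD+T, 43.3 ± 26.1 in WSD and 19.5 ± 4.21 in control, a difference of 0.64 in WSD vs control (adjusted p = 0.185). ICAM2, a constitutive LFA-1 ligand, averaged 84.5 ± 12.8 in WSD+T, 78.6 ± 37.2 in WSD and 40.7 ± 14.8 in control. P-selectin, SELP, which endothelium and platelets store in granules, averaged 93.6 ± 21.8 in WSD+T, 110 ± 87.6 in WSD and 44.9 ± 16.5 in control. Of the 8 genes, 7 had a positive difference in WSD vs control and the list median was 0.50, beside -0.08 for all probe sets. With WSD replicate 3 left out, 5 of the 8 were called higher in WSD vs control and 1 lower in WSD+T vs WSD. In WSD+T vs control 1 was called higher and 1 lower with array weights per group, and the same numbers with only the 2 groups compared.

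On the leukocyte side, genes of selectin and integrin partners and of the enzymes that build selectin ligands gave no call among 10 tested. At an unadjusted p under 0.05 there were 3, 3 and 1 in WSD vs control, WSD+T vs control and WSD+T vs WSD. The shares of all probe sets called there were 14.5%, 1.97% and 2.99%. SELPLG, a selectin ligand carried by leukocytes, averaged 244 ± 40.0 in WSD+T, 335 ± 367 in WSD and 22.7 ± 32.9 in control. The integrin chain ITGB2, part of LFA-1, averaged 614 ± 89.6 in WSD+T, 516 ± 564 in WSD and 128 ± 134 in control. Both were near the bottom on WSD replicate 3, where SELPLG was 2.86 and ITGB2 15.7. ITGAL, the other chain of LFA-1, was not listed. Leaving out WSD replicate 3, control replicate 1 or WSD replicate 1 gave 4, 2 and 1 higher calls in WSD vs control, and leaving out WSD replicate 3 gave 1 in WSD+T vs control. In WSD+T vs control 2 were called higher with array weights per group and 3 with only the 2 groups compared.

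The cytokine and NF-kB route that induces SELE had 12 of 26 genes tested. In WSD vs control 1 was called higher and 1 lower (14.5% of all probe sets called), with a list median of -0.18. In WSD+T vs control none was (3 unadjusted, 1.97% of all probe sets called), with a median of 0.03. In WSD+T vs WSD 1 was higher (2.04% of all probe sets called higher), with a median of 0.15. RELB, an NF-kB subunit of the alternative pathway, rose to 150 ± 6.91 in WSD, against 48.8 ± 18.3 in control (log2 difference 1.39, SE 0.20, limma's adjusted p = 0.00604), and passed in all 9 fits with 1 array left out. It was 95.1 ± 15.5 in WSD+T. Its partner NFKB2 fell to 53.5 ± 17.7 in WSD, against 155 ± 65.9 in control (-1.26, SE 0.29, adjusted p = 0.0250), and was 141 ± 7.62 in WSD+T. NFKB2 did not pass without WSD replicate 1, control replicate 2 or control replicate 3 (highest adjusted p = 0.0740). The kinase IKBKB rose to 917 ± 27.3 in WSD+T, against 614 ± 39.1 in WSD (0.57, SE 0.12, adjusted p = 0.0472), a call that held in 1 of 9 fits, the one without WSD replicate 2, and whose adjusted p reached 0.184.

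NFKB1, which encodes the subunit p50, averaged 223 ± 9.08 in WSD+T, 291 ± 30.3 in WSD and 208 ± 42.7 in control (adjusted p = 0.0930 in WSD vs control). Interleukin-1 beta, IL1B, averaged 249 ± 21.4 in WSD+T, 272 ± 261 in WSD and 108 ± 88.8 in control and was called in no comparison. The TNF probe set had signals of at most 2.34 on all 9 arrays, and that of NFKBIA, the NF-kB inhibitor that NF-kB itself induces, ran from 10.3 to 27.3. Both were under the filter and were not tested. The RELA probe set was not listed.

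Some other products that cytokines induce in endothelium were higher where SELE was lowest. Of 17, 10 were tested, and 3 were called higher in WSD vs control and none lower, with a median of 1.00 beside -0.08 for all probe sets (4.78% of them called higher). Tissue factor, F3, the starter of clotting, averaged 4459 ± 743 in WSD and 2498 ± 588 in control (0.84, adjusted p = 0.0250). PLAUR, the urokinase receptor, averaged 354 ± 160 in WSD and 98.9 ± 60.6 in control (1.74, adjusted p = 0.0283), and the cytokine LIF 166 ± 64.8 in WSD and 41.3 ± 26.9 in control (1.74, adjusted p = 0.0376). With 1 array left out, F3 passed in 6 of 9 fits, PLAUR in 4 and LIF in 4, with highest adjusted p of 0.0828, 0.0778 and 0.106. F3 did not pass without WSD replicate 1 or control replicate 1 or 2, PLAUR without WSD+T replicate 3, WSD replicate 1 or 2, or control replicate 2 or 3, and LIF without WSD+T replicate 1, WSD replicate 1 or 2, or control replicate 1 or 2. In WSD+T vs control the median was 1.09 with no call (5 unadjusted, 1.97% of all probe sets called). In WSD+T vs WSD it was -0.20 with no call (2.99% of all probe sets called) and none at an unadjusted p under 0.05. Without WSD replicate 3, 6 of the 10 were called higher in WSD vs control, with a median of 1.48. None was called there with array weights per group, with only the 2 groups compared, or without WSD replicate 1 or control replicate 2. Several of these genes are also made by macrophages.

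The genes around ESM1 in angiogenesis gave few calls. Only 2 of 11 VEGF ligands and receptors were tested, and neither the ligand VEGFB (0.04 in WSD+T vs WSD, -0.34 in WSD+T vs control and -0.38 in WSD vs control) nor the co-receptor NRP1 was called or had an unadjusted p under 0.05. The VEGFA probe set was not listed. Of 15 other tip cell genes, 9 were tested, and 1 was called, in WSD vs control (4.78% of all probe sets called higher). This was the IGF-binding protein IGFBP3, as higher (1.29, SE 0.33, adjusted p = 0.0333). It passed in 3 of 9 fits with 1 array left out (highest adjusted p = 0.0737), those without WSD replicate 1, WSD replicate 3 or control replicate 1. The list medians were -0.01 in WSD vs control, 0.11 in WSD+T vs control and 0.22 in WSD+T vs WSD. The tip cell ligand of Notch, DLL4, had signals from 25.9 to 48.9 on the 9 arrays, and the APLN and ANGPT2 probe sets were not listed.

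In angiopoietin, FGF and HGF signalling, 1 of 7 tested genes was called, as lower in WSD vs control (9.68% of all probe sets called lower). MET, the receptor of HGF, which endocan binds in humans, averaged 455 ± 177 in WSD, against 1223 ± 552 in control (-1.39, SE 0.37, adjusted p = 0.0380), and 547 ± 74.5 in WSD+T. MET passed in 3 of 9 fits, those without WSD replicate 2, WSD replicate 3 or control replicate 1 (highest adjusted p = 0.103). Of 7 flow-responsive and anticoagulant genes none was called in WSD vs control (0 unadjusted), in WSD+T vs control (1 unadjusted) or in WSD+T vs WSD (1 unadjusted). Of all probe sets, 14.5%, 1.97% and 2.99% were called there. The vasoconstrictor peptide EDN1 was at 150 ± 37.6 in WSD+T, 38.6 ± 27.2 in WSD and 30.4 ± 22.2 in control, with adjusted p of 0.0843 against control and 0.0868 against WSD. Of 9 angiogenesis inhibitors, 2 were called higher in WSD vs control (4.78% of all probe sets called higher), the growth factor signalling inhibitors SPRY1 (0.70, adjusted p = 0.0406) and SPRY2 (1.00, adjusted p = 0.0420). SPRY1 passed in 1 of 9 fits, without control replicate 1, and SPRY2 in 2, without control replicate 1 or 3, with highest adjusted p of 0.118 and 0.0838.

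Several enzymes that build the dermatan sulphate chain that endocan carries were lower after the diet alone. Of 17, 13 were tested, and 4 were called lower in WSD vs control and none higher, with 9.68% of all probe sets called lower there, and the list median was -0.30. CHSY3, which lengthens the chondroitin backbone, fell to 365 ± 116 in WSD, against 818 ± 118 in control (-1.16, SE 0.22, adjusted p = 0.0136). The epimerase gene DSEL, whose product turns chondroitin into dermatan, fell to 575 ± 154 in WSD, against 1113 ± 100 in control (-0.97, SE 0.21, adjusted p = 0.0192), and the dermatan sulphotransferase CHST14 to 111 ± 9.23 in WSD, against 191 ± 19.8 in control (-0.71, SE 0.14, adjusted p = 0.0163). XYLT2, which attaches the first sugar to the protein, fell to 196 ± 6.87 in WSD, against 417 ± 174 in control (-0.96, adjusted p = 0.0376).

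In WSD+T none of these enzymes was called against control (3 unadjusted, 1.97% of all probe sets called). DSEL (0.97, adjusted p = 0.0481) and XYLT2 (1.21, adjusted p = 0.0452) were called higher than in WSD (2.04% of all probe sets called higher). The main dermatan epimerase DSE averaged 2294 ± 92.7 in WSD+T, 2455 ± 740 in WSD and 2936 ± 285 in control, with no call. Without control replicate 2, CHSY3 (adjusted p = 0.0509) and DSEL did not pass in WSD vs control, nor did CHST14 (0.0512) and DSEL without control replicate 3 (highest for DSEL 0.0635). XYLT2 passed in 2 of 9 fits in that comparison, without WSD replicate 3 or control replicate 2 (highest adjusted p = 0.0921). Against WSD, DSEL passed in 2 of 9 fits, without WSD replicate 2 or 3, and XYLT2 in 2, without control replicate 2 or 3, with highest adjusted p of 0.185 and 0.180. The count of 4 lower in WSD vs control was 1 under median centring or without control replicate 3, 2 with array weights or without control replicate 2, and none with only the 2 groups compared. Against WSD, 1 was called higher in WSD+T under quantile normalization and none under median centring or cyclic loess. These enzymes serve other proteoglycans and other cell types of the follicle too.

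**Figure D4:**
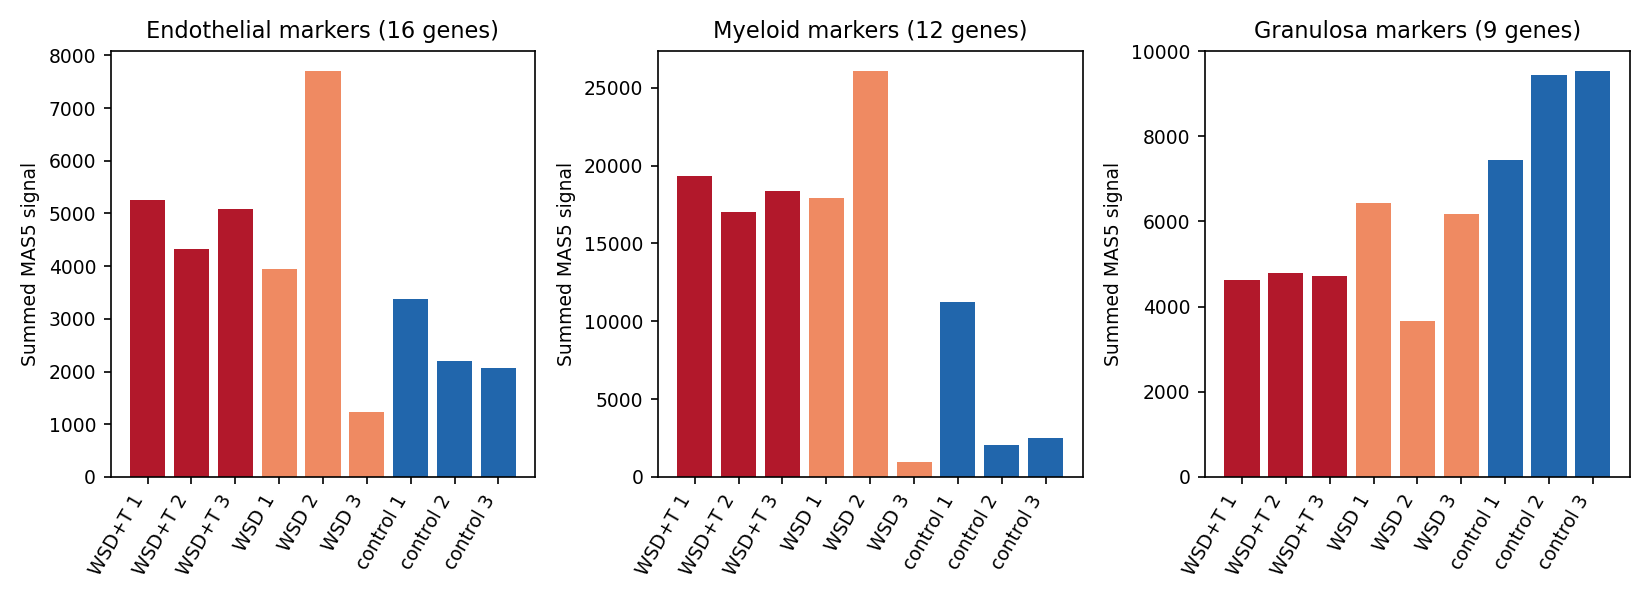
Summed MAS5 signal of the tested endothelial, myeloid and granulosa markers on each array, on linear axes from 0. The endothelial and myeloid sums were lowest on WSD replicate 3 and highest on WSD replicate 2, and the granulosa sums of all 3 control arrays, at least 7440, were above those of all others.

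Of the granulosa, theca and myeloid marker sums, only the granulosa sum set the control arrays apart from both diet groups. The theca and myeloid sums of WSD overlapped those of control. The summed signal of 9 granulosa markers ran from 4634 to 4794 in WSD+T, from 3654 to 6437 in WSD and from 7440 to 9532 in control, so it was highest in the group in which both genes were highest. Of these 9, 2 were called lower and 1 higher in WSD vs control (9.68% and 4.78% of all probe sets). In WSD+T vs control 2 were called lower (1.43% of all probe sets called lower), and in WSD+T vs WSD none was called (2 unadjusted). The inhibin subunits INHA and INHBB were called lower in both comparisons with control, and the subunit INHBA higher in WSD. With 1 array left out, INHBB passed in 9 of 9 fits in WSD vs control and 4 of 9 in WSD+T vs control, INHA in 6 and 3, and INHBA in 1, the one without WSD replicate 3 (highest adjusted p = 0.112). Of 4 theca markers, 3 were called lower in WSD vs control (9.68% of all probe sets), 2 in WSD+T vs control (1.43%) and 1 in WSD+T vs WSD (0.948%). These were the steroid enzymes CYP17A1 (WSD vs control) and HSD3B2 (all comparisons) and the hedgehog receptor PTCH1 (both comparisons with control). With 1 array left out, the 3 calls in WSD vs control passed in 9 of 9 fits. In WSD+T vs control HSD3B2 passed in 7 of 9 and PTCH1 in 2 of 9, with no theca marker called without WSD+T replicate 1 or 3. HSD3B2 passed in 5 of 9 in WSD+T vs WSD, and not without any 1 WSD+T replicate or WSD replicate 1 (highest adjusted p = 0.125). Their summed signal ran from 2916 to 3080 in WSD+T, from 3060 to 4905 in WSD and from 3833 to 4933 in control. No tested granulosa or theca marker was at 0, and the FSHR, FOXL2 and LHCGR probe sets were not listed.

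The summed signal of 12 myeloid markers ran from 16996 to 19338 in WSD+T, from 980 to 26078 in WSD and from 2054 to 11226 in control. None was called in any comparison (0, 3 and 0 unadjusted in WSD vs control, WSD+T vs control and WSD+T vs WSD). The shares of all probe sets called were 14.5%, 1.97% and 2.99%. Their median difference was 1.07 in WSD vs control, 2.31 in WSD+T vs control, with all 12 positive, and 1.07 in WSD+T vs WSD. Without WSD replicate 3 the median was 2.50 in WSD vs control and -0.22 in WSD+T vs WSD. In WSD+T vs control 5 were called higher with only the 2 groups compared and 4 with array weights per group. Without WSD replicate 3, 11 of the 12 were called higher in WSD vs control and 5 in WSD+T vs control. Without WSD replicate 2, 1 was called higher in WSD+T vs control. The leukocyte antigen PTPRC ran from 769 to 1070 in WSD+T, from 35.6 to 1843 in WSD and from 52.8 to 516 in control, and the macrophage marker CD68 from 2217 to 2322 in WSD+T, from 92.0 to 3295 in WSD and from 66.3 to 1353 in control. SELE and PTPRC were both highest among control arrays on replicate 1. Across the groups the 2 genes did not run together, since PTPRC reached 1843 in WSD, where SELE was lowest. The part of these cell types in the differences of SELE and ESM1 was not tested.

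The remaining marker lists gave at most 1 call per list in each comparison. Of all probe sets, 4.78% were called higher and 9.68% lower in WSD vs control. These shares were 0.542% and 1.43% in WSD+T vs control, and 2.04% and 0.948% in WSD+T vs WSD. No lymphatic endothelial marker of 4 was called in any comparison (0, 1 and 1 unadjusted in WSD vs control, WSD+T vs control and WSD+T vs WSD). Of 6 pericyte and smooth muscle markers only the actin-binding protein TAGLN was, as higher in WSD vs control (0.93, adjusted p = 0.0342), in 2 of 9 fits with 1 array left out (highest adjusted p = 0.104), those without WSD replicate 2 or 3. Of 3 blood cell and platelet markers, the haemoglobin chain HBB was lower in WSD+T than in control (-1.36, adjusted p = 0.0218) and than in WSD (-1.20, adjusted p = 0.0303). HBB passed in 5 of 9 fits in each, and against control not without WSD+T replicate 1 or 3 or control replicate 2 or 3, nor against WSD without any 1 WSD+T replicate or WSD replicate 1 (highest adjusted p = 0.125 and 0.143). Of 7 oocyte markers, ZP4 was higher in WSD vs control and FIGLA in WSD+T vs control, each in 4 of 9 fits, and of 4 stroma markers, LUM was lower in WSD vs control in 9 of 9 and higher in WSD+T vs WSD in 5 of 9.

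The genes whose values ran most like those of each member were taken by Pearson's r over the 9 arrays among 16624 probe sets with 1 symbol. They are a description, since group differences alone can give a high r and since the arrays are shared. For SELE these were RBMX2 (r = 0.958), ZNF233 (0.955), ZNF277 (0.954), CEP57L1 (0.950) and LOC708576 (0.948). The zinc finger gene ZNF277 showed the same split of the control group, with 732, 286 and 618 in control replicates 1 to 3, beside 324, 258 and 385 in WSD+T and 297, 203 and 180 in WSD. For ESM1 they were CKAP5 (r = 0.995), which builds spindle microtubules, TECPR2 (0.990), TBC1D31 (0.980), the condensin subunit SMC2 (0.979) and the mitotic gene GTSE1 (0.979). CKAP5 had signals of 118, 108 and 118 in WSD+T, 129, 139 and 129 in WSD and 260, 313 and 235 in control, so its control arrays stood in the same order as those of ESM1. No endothelial marker was among these 10 genes. Only 16 such markers were tested, beside 16624 probe sets, so this absence says little about endothelium.

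SELE and ESM1 lie on different chromosomes, and their neighbours in the RefSeq table of the assembly T2T-MMU8v2.0 were compared, a set chosen after the values were seen. SELP, which lies near SELE on one side, was not called in any comparison. On the other side METTL18 averaged 881 ± 80.2 in WSD+T, 618 ± 122 in WSD and 873 ± 62.5 in control, with no call. Beyond it FIRRM, a factor of DNA repair, fell to 182 ± 33.9 in WSD, against 479 ± 41.7 in control (-1.33, SE 0.21, adjusted p = 0.00758), and passed in all 9 fits with 1 array left out. FIRRM was the only tested neighbour called, in a comparison in which 14.5% of all probe sets were called, 9.68% as lower. A single call is thus no sign of a change in the region. Near ESM1, the granzyme genes GZMK and GZMA, which cytotoxic lymphocytes use, and SNX18 were tested, and none was called in any comparison (adjusted p of at least 0.0973 in WSD vs control).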

How the data were processed

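The authors deposited MAS5 signal intensities per probe set, 1 array for each of 9 samples. Per the labels' protocols RNA was amplified with a NuGEN 3′ kit and labelled with biotin, and MAS5 is named in the submitters' processing notes, without a version. Detection calls were not used here, and the sources used name no build for the array's annotation. Neighbouring genes were taken from a RefSeq table of the assembly T2T-MMU8v2.0, used for names and order only. Control probe sets (99) were left out. Of all probe sets, 24969 had 1 symbol in the array's annotation, 361 several and 27535 none listed.

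Values were analysed as log2(signal + 16), which understates changes of low signals, without further normalization. Probe sets with a mean at or above the median of all (5.22, a signal of about 21.2) were tested with limma 3.58.1 in R 4.3.3, with 1 mean per group over all 9 arrays (6 residual and 2.69 prior degrees of freedom) and Benjamini-Hochberg adjustment over the 26383 tested. That shared spread averaged variances of 0.0411 in WSD+T, 0.330 in WSD and 0.152 in control. Intervals are 95% and unadjusted, and the number of arrays limits the precision. The fit was tested on simulated data. Figures were drawn with matplotlib 3.10.9.

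Each of 10 gene lists and 9 marker lists used the tested probe set with the highest mean per gene. Named were the members, up to 4 called genes per list by smallest p, a fixed set of endothelial and leukocyte genes, and the 5 genes most like each member. Other list genes and the neighbouring genes were named after their values were seen. Members and lists were chosen with earlier results of these data known.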

Additional observations from a re-analysis of the deposited data

How the results depend on the processing

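SELE and ESM1 kept their direction in every comparison under all 19 alternatives. None of the 4 tested differences changed its side of the threshold: ESM1 in WSD vs control passed in all 19, and the others passed in none. The differences of SELE in WSD vs control and of ESM1 in WSD+T vs control chose the genes and were not tested under any setting. ESM1 in WSD+T vs control was -1.67 with a pseudocount of 64, and with 1 array left out it ran from -2.14 to -1.90. Leaving out 1 array, SELE ran from -2.72 to -1.71 in WSD vs control, from -1.64 to -0.63 in WSD+T vs control and from 0.87 to 1.24 in WSD+T vs WSD, and ESM1 from -1.82 to -1.58 in WSD vs control and from -0.41 to -0.25 in WSD+T vs WSD.

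The counts of all called probe sets were far less stable. For WSD vs control (3817) they were 1367 with array weights per group, 2544 with WSD+T replicates 1 and 3 averaged and 859 with only the 2 groups compared, and 1735 to 6628 with 1 array left out. For WSD+T vs control (520) they were 3267, 0 (3055 at an unadjusted p under 0.05 in limma) and 3265, and 0 to 1777 with 1 array left out. For WSD+T vs WSD (789) they were 186, 0 (3935 unadjusted) and 9, 300 under median centring and 0 to 1548 with 1 array left out. The counts of 0 with 1 array left out came without WSD+T replicate 1 (3006 unadjusted) or 3 (3151) against control, and without WSD+T replicate 1 (3782) or 2 (3712) against WSD. No other tool was run. With the replicate number as a block the counts were 2220, 3 and 1, and ESM1 in WSD vs control still passed (adjusted p = 0.0162). Residuals of same-numbered samples correlated from -0.30 to 0.19, so the numbers are not taken to pair the samples. Beyond those, the gene counts of 10 gene lists and the endothelial markers, an addition made after the data were seen, were within 1.5 times in 490 of 627 settings. A count of 0 that stayed at 0 was taken as within 1.5 times, so this figure says little about the stability of actual calls. Of the 33 list and comparison pairs, 25 had no call in the main fit, and 7 of these had none under any alternative.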
